A study of Mus musculus with 8 samples.

Results

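Transcript levels of 9 genes that mark astrocytes were followed in neurospheres grown from the adult mouse hippocampus. The genes were Gfap, Aqp4, Apoe, Kcnj10, Slc1a2, Slc1a3, S100b, Aldh1l1 and Gja1, chosen by name and found on the arrays by matching the accession of each probe to its gene symbol. All 9 were among the 13306 genes tested. They had 15 probes, of which 13 passed the filter on dim probes, and 7 of the 9 genes were well above background on all 8 arrays. Gfap and Aqp4 were the exceptions.

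The cells were secondary neurospheres, floating clusters obtained by taking primary spheres apart and growing their cells once more in medium with bFGF and EGF at 20 ng/ml and heparin. The mice were 7 to 9 weeks old. Cells labelled Sirt1 KO, for the gene of the deacetylase SIRT1, were set against WT cells, and the kind of knockout allele is not given in the sources used here. Both came from the strain 129/ICR and grew for 6 days. Replicate 1 was female and replicate 2 male in both of these groups. Resveratrol, a plant polyphenol used to activate SIRT1, was given for 24 hours after 5 days of culture at a dose that the labels write as 10 "mm". DMSO, its solvent, was given for the same time to the control cells. Both of these groups were male C57BL/6 cells labelled WT for genotype. Each of the 4 groups had 2 arrays, 1 per sample. The labels do not say whether replicates came from separate cultures or animals, apart from the sexes given, so p-values measure the spread between these samples only.

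Astrocytes are the glial cells that take up potassium and glutamate, couple to each other through gap junctions, and wrap blood vessels with processes rich in a water channel. Neural stem cells of the adult hippocampus are themselves related to astrocytes and share several of these genes, so that Gfap, Slc1a3, Apoe and Gja1 are used as markers of both. In the developing mouse brain, signals through STAT3, Notch with its partner RBPJ, bone morphogenetic proteins with their Id targets, and nuclear factor I proteins turn on astrocyte genes.

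Sequence upstream of the transcription start was read for the members from RefSeq (build GRCm38.p6), where windows for 8 of the 9 genes, all but Aqp4, were matched by symbol. The 250 bases before the start are shown for Gfap, Apoe and Kcnj10, the members with the largest differences or with one that passed, and for Slc1a3 as a member with little difference in either arm. They lie on the minus strand at chr11:102897201-102897450 (Gfap), chr7:19699189-19699438 (Apoe, the most upstream of its 3 starts) and chr15:8710808-8711057 (Slc1a3), and on the plus strand at chr1:172340960-172341209 (Kcnj10). Capitals mark matches on either strand to the STAT palindrome TTCNNNGAA, the RBPJ core TGGGAA, the nuclear factor I half-site TTGGCA or the TATA box core TATAAA.
Gfap: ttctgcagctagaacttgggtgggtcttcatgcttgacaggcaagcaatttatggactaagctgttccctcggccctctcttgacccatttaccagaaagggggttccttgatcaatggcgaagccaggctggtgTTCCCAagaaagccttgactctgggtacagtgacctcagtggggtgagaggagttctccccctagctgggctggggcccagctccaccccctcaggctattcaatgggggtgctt
Apoe: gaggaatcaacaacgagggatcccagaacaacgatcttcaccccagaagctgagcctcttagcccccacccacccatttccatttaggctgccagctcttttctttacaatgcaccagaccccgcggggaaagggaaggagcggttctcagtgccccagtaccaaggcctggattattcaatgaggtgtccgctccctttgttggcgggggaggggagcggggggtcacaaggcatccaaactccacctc
Kcnj10: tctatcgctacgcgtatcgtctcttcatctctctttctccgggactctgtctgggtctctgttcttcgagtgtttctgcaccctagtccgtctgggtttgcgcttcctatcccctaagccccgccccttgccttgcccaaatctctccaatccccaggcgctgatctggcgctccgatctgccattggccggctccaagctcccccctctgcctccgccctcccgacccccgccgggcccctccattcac
Slc1a3: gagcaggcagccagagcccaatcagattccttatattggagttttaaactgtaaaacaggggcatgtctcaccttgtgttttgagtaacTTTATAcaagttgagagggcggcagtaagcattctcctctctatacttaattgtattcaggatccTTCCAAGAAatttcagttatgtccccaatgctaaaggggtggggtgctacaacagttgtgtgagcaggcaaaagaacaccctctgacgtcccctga
In the Gfap window the capitals are an RBPJ core read on the opposite strand, 115 to 110 bases before the start. In the Slc1a3 window they are a STAT palindrome 96 to 88 bases before the start and a TATA box core on the opposite strand 161 to 156 bases before it, with no overlap. The windows of Apoe and Kcnj10 shown here hold none of the 4 motifs. Over the 8 genes, counting all 3 Apoe windows, the RBPJ core was found in 3 (Gfap, S100b and Aldh1l1), the nuclear factor I half-site in 2 (Apoe and S100b), the TATA box core in 2 (Apoe and Slc1a3) and the STAT palindrome in 1 (Slc1a3). Counted the same way, 24.1% of all 27025 genes held the RBPJ core, 14.1% the nuclear factor I half-site, 14.3% the TATA box core and 8.13% the STAT palindrome. Of the 32851 single windows, the shares were 21.6%, 12.3%, 12.4% and 7.02% in the same order. Base composition differed among the members: Kcnj10 had 17 CG dinucleotides in its 250 bases and Gfap 2, with a median of 6 over all windows.

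All levels below are log2 signals of a probe relative to the 75th percentile of the signals of its array, so 0 is that percentile and a difference of 1 is a doubling. Levels can be compared between arrays for a given probe, but not between probes. That percentile ran from 247 to 871 signal units, and 53.1% to 72.0% of the 41174 probes were well above background. Signals were weaker on all 4 replicate 2 arrays (247 to 375) than on the replicate 1 arrays (713 to 871). Precision is limited throughout by having only 2 arrays in a group. The arrays lay on 3 slides. Slide 1 held WT 1, resveratrol 1 and DMSO 1, slide 2 held Sirt1 KO 1, resveratrol 2 and DMSO 2, and slide 3 held Sirt1 KO 2 and WT 2. The arrays of slide 3 were scanned on a different day from all the others. Both resveratrol pairs and pair 2 of the genotype groups thus lay within a slide, while Sirt1 KO 1 and WT 1 did not. The array's Sirt1 probes, A_51_P141152 and A_52_P358612, differed by -0.30 and 0.004 in Sirt1 KO relative to WT. Without their place relative to the deletion, which is not given in the sources used here, they do not check the labels. In a mixed culture, fewer cells of a type and less RNA per cell cannot be told apart.

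Groups were compared with limma. Its fit of 4 group means called 0 of the 13306 genes at an adjusted p of 0.05 for Sirt1 KO against WT and 0 for resveratrol against DMSO (0.0% each), with 159 and 202 genes at an unadjusted p under 0.05. With replicate number as a block, which compares arrays within pairs, 48 and 71 genes passed. A gene is said below to have risen or fallen only where it passed with that block. With slide as a block 0 genes passed in either arm (0.0% each), with 1234 and 606 genes at an unadjusted p under 0.05, so every such call within an arm is lost with it.

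**Figure D1:**
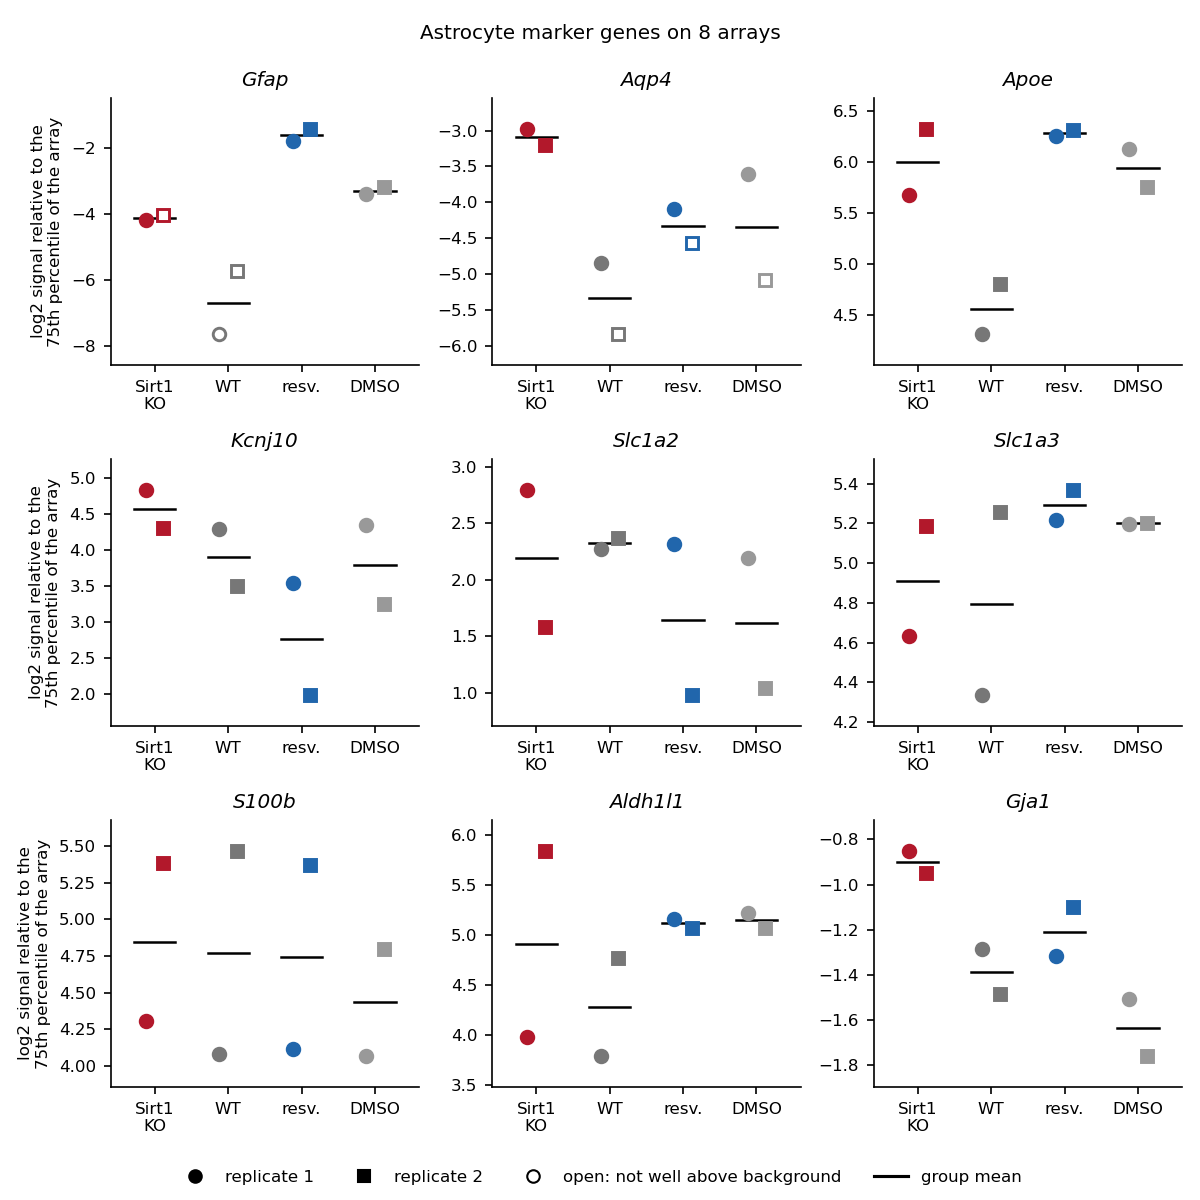
Level of each astrocyte marker gene on every array (log2 signal relative to the 75th percentile of the array, for the probe that stands for the gene), with groups in the order Sirt1 KO, WT, resveratrol (resv.) and DMSO, circles for replicate 1, squares for replicate 2, open symbols where the probe was not well above background and bars for group means. Both Sirt1 KO arrays sit above both WT arrays for Gfap, Aqp4, Apoe, Kcnj10 and Gja1, and replicate numbers split the points for S100b in every group.

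Gfap encodes the intermediate filament protein that gives astrocytes their best known marker. Its probe A_52_P52303 read -4.19 and -4.03 in Sirt1 KO cells, against -7.65 and -5.73 in WT cells. In resveratrol-treated cells it read -1.78 and -1.40, against -3.40 and -3.17 in DMSO-treated cells. No group overlapped another, and their order was resveratrol, DMSO, Sirt1 KO and WT. The probe was well above background on both resveratrol and both DMSO arrays, on 1 of the 2 Sirt1 KO arrays and on neither WT array. The measured means were -4.11 in Sirt1 KO and -6.69 in WT (limma, adjusted p = 1.0; adjusted p = 0.06 with the replicate block), and with 3 of these 4 arrays not well above background no fold is given. Resveratrol exceeded DMSO by 1.69 (SE 0.64), which is 3.23-fold, and the pairs gave 1.61 and 1.77 (adjusted p = 1.0; adjusted p = 0.142 with the block). The Sirt1 KO difference passed in opposite directions under different processing. With the block, quantile normalization gave 2.68 (adjusted p = 0.0423) and the authors' deposited values gave 2.72 (adjusted p = 0.0406), whereas normexp background correction of the median signals turned the difference to -0.98 (adjusted p = 0.0139). Of all 13306 genes, that normexp fit called 3246 lower, while 15 were called higher with quantile normalization and 21 with the deposited values. The Sirt1 KO difference exceeded the resveratrol difference by 0.89 (SE 0.91, adjusted p = 0.589 with the block), which turned to -0.07 without WT replicate 1.

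The array holds a second Gfap probe, A_52_P540991, listed under another Gfap transcript. It was dimmer and did not pass the filter. It read -6.87 and -5.80 in Sirt1 KO cells, against -7.45 and -5.84 in WT cells, all not well above background. It read -5.15 and -4.59 in resveratrol-treated cells, against -5.69 and -5.70 in DMSO-treated cells, with 1 array of each group well above background. Its Sirt1 KO minus WT difference was 0.31, with a 95% interval of -1.48 to 2.10, and its resveratrol minus DMSO difference was 0.82, with a 95% interval of -0.97 to 2.61.

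Aqp4 encodes the water channel of astrocyte end-feet. Its brighter probe, A_51_P419319, read -2.97 and -3.21 in Sirt1 KO cells, against -4.84 and -5.84 in WT cells, and the groups did not overlap. It read -4.09 and -4.57 in resveratrol-treated cells, against -3.61 and -5.08 in DMSO-treated cells, where both resveratrol arrays lay between the DMSO arrays. Both Sirt1 KO arrays were well above background, but only replicate 1 of each other group was. The measured means differed by 2.25 (SE 0.63), with 1.87 in pair 1 and 2.63 in pair 2 (limma, adjusted p = 1.0; adjusted p = 0.0651 with the block), and the value of pair 2 is set against a WT array that was not well above background. Normexp on the median signals turned this to -0.57 (adjusted p = 0.0629 with the block). It exceeded the resveratrol difference by 2.24 (SE 0.89, adjusted p = 0.166 with the block). The other Aqp4 probes were higher in Sirt1 KO in both pairs as well, by 0.91 and 1.68 for A_52_P25710 and by 1.58 and 0.61 for A_52_P625527, with at most 1 array of either genotype well above background. Resveratrol minus DMSO was 0.01 for the brighter probe (95% interval -1.49 to 1.51) and turned to -0.23 without resveratrol replicate 1 and to -0.72 without DMSO replicate 2. The other probes disagreed on it, with 1.14 for A_52_P25710 (-0.92 in pair 1 and 3.19 in pair 2, both resveratrol arrays and 1 DMSO array well above background) and -0.26 for A_52_P625527. The mean of the probes that passed the filter gave 0.57 (adjusted p = 1.0).

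**Figure D2:**
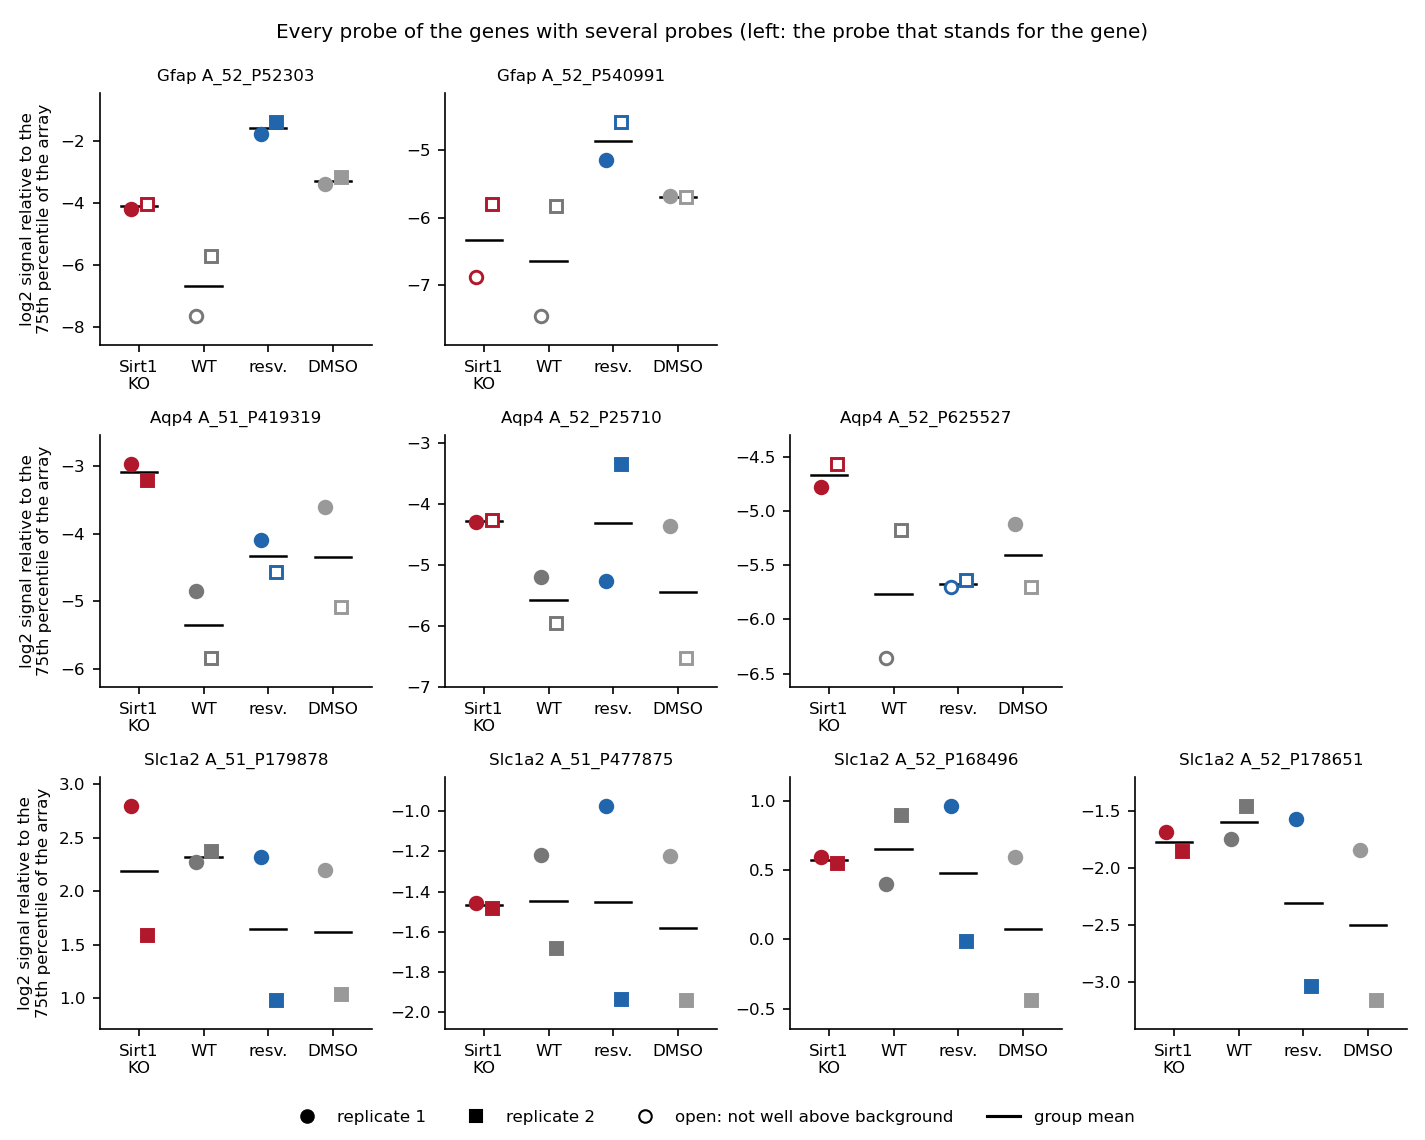
Every probe of the genes that had several (Gfap, Aqp4 and Slc1a2), with the probe that stands for the gene at the left and symbols as in the plot of the members by array (log2 signal relative to the 75th percentile). The Sirt1 KO arrays lie above the WT arrays for the left Gfap and Aqp4 probes, while the Slc1a2 arrays of both genotypes overlap for all 4 probes.

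Apoe encodes the lipoprotein with which astrocytes supply lipids to other brain cells, and it was the member whose Sirt1 KO difference passed with the block. It had 9 or 10 usable spots per array, which lay within a range of 0.09 to 0.19 on every array. Apoe read 5.67 and 6.33 in Sirt1 KO cells, against 4.31 and 4.80 in WT cells. It read 6.26 and 6.31 in resveratrol-treated cells, against 6.12 and 5.75 in DMSO-treated cells. Both WT arrays were below all other arrays, and the levels of Sirt1 KO, resveratrol and DMSO cells overlapped. Apoe rose in Sirt1 KO by 1.44 with the block, which is 2.72-fold (SE 0.12, adjusted p = 0.00988), by 1.36 in pair 1 and 1.52 in pair 2. Without a block the SE was 0.41 (adjusted p = 1.0), and the slide block gave an adjusted p of 0.446. Resveratrol exceeded DMSO by 0.35, by 0.14 and 0.56 in the pairs, with adjusted p = 0.261 with the block. The Sirt1 KO difference was larger than the resveratrol difference by 1.09 (95% interval 0.69 to 1.50 with the block, adjusted p = 0.056).

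Kcnj10 encodes the inward rectifier Kir4.1, through which astrocytes take up potassium. It read 4.84 and 4.31 in Sirt1 KO cells, against 4.29 and 3.51 in WT cells. It read 3.55 and 1.98 in resveratrol-treated cells, against 4.35 and 3.25 in DMSO-treated cells. Replicate 2 was the lower array in every group, and the resveratrol and DMSO groups overlapped although each resveratrol array was below its own partner. Kcnj10 fell with resveratrol by 1.03 with the block, which is 2.05-fold lower (SE 0.14, adjusted p = 0.0281), by 0.80 in pair 1 and by 1.26 in pair 2. In Sirt1 KO cells it was higher by 0.68, by 0.55 and 0.80 in the pairs, and did not pass (adjusted p = 0.0946 with the block). The difference between these differences was 1.71 (SE 0.19 with the block, adjusted p = 0.0195; SE 0.88 and adjusted p = 1.0 without it). With slide as a block the resveratrol difference stayed at -1.03, with an SE of 0.29 (limma, adjusted p = 1.0). Both resveratrol pairs lay within a slide, so that block leaves this difference as it is and changes only its SE. For the difference between the arms the adjusted p with slide as a block was 0.639. Leaving out an array sets arrays of unlike replicate numbers against each other, and resveratrol minus DMSO was then -0.25 without resveratrol replicate 2 and -1.82 without resveratrol replicate 1. Sirt1 KO minus WT was 0.28 without WT replicate 2 and 1.07 without WT replicate 1.

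Gja1 encodes the main connexin of the gap junctions between astrocytes. Its 10 spots per array lay within 0.16 to 0.41 of each other. It read -0.85 and -0.95 in Sirt1 KO cells, against -1.29 and -1.49 in WT cells, and -1.32 and -1.10 in resveratrol-treated cells, against -1.51 and -1.76 in DMSO-treated cells. In neither arm did the groups overlap. Sirt1 KO exceeded WT by 0.49 (SE 0.24, n = 2 per group), by 0.44 and 0.54 in the pairs, and resveratrol exceeded DMSO by 0.43 (SE 0.24), by 0.19 and 0.66. Neither passed (limma, adjusted p = 0.286 and 0.332 with the block). Normexp on the median signals left a Sirt1 KO difference of 0.055 and a resveratrol difference of 0.31. The difference between the arms was 0.06, with a 95% interval of -0.76 to 0.87.

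Slc1a2 and Slc1a3 encode GLT-1 and GLAST, the transporters that clear glutamate from synapses, and GLAST is also found on neural stem cells. Slc1a3 read 4.63 and 5.19 in Sirt1 KO cells, against 4.34 and 5.26 in WT cells. It read 5.22 and 5.37 in resveratrol-treated cells, against 5.20 and 5.20 in DMSO-treated cells. The genotype groups overlapped and the treated groups did not, although the gap was small. Sirt1 KO minus WT was 0.11 (95% interval -0.86 to 1.09; -0.16 to 0.39 with the block), and turned to -0.17 without Sirt1 KO replicate 2 and to -0.35 without WT replicate 1. Resveratrol minus DMSO was 0.09 (-0.88 to 1.07; -0.18 to 0.37 with the block).

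Slc1a2 had 4 probes, all of them detected above background on every array. The brightest, A_51_P179878, read 2.80 and 1.59 in Sirt1 KO cells, against 2.27 and 2.37 in WT cells, so both WT arrays lay between the Sirt1 KO arrays. It read 2.32 and 0.98 in resveratrol-treated cells, against 2.20 and 1.04 in DMSO-treated cells, which were split by replicate number in the same way. Over the 4 probes the mean Sirt1 KO minus WT difference ran from -0.17 to -0.02, and the mean resveratrol minus DMSO difference from 0.03 to 0.40. The 95% intervals of all 4 probes included 0 in both arms. For the brightest probe Sirt1 KO minus WT turned to 0.47 without Sirt1 KO replicate 2 and to 0.24 with slide as a block, and resveratrol minus DMSO turned to -0.64 without resveratrol replicate 1 and to -0.55 without DMSO replicate 2.

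S100b encodes a calcium-binding protein of astrocytes that oligodendrocyte lineage cells also make, and Aldh1l1 a folate enzyme that marks astrocytes broadly. S100b read 4.30 and 5.38 in Sirt1 KO cells, against 4.08 and 5.47 in WT cells, and 4.11 and 5.37 in resveratrol-treated cells, against 4.07 and 4.80 in DMSO-treated cells. Replicate 2 was the higher array in all 4 groups, and the groups overlapped in both arms. Sirt1 KO minus WT was 0.07 (95% interval -0.26 to 0.40 with the block). It turned to -0.47 without Sirt1 KO replicate 2, to -0.62 without WT replicate 1 and to -0.36 with slide as a block. Resveratrol minus DMSO was 0.31 (-0.02 to 0.64 with the block), and turned to -0.32 without resveratrol replicate 2 and to -0.06 without DMSO replicate 1.

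Aldh1l1 read 3.98 and 5.84 in Sirt1 KO cells, against 3.79 and 4.77 in WT cells, and 5.16 and 5.07 in resveratrol-treated cells, against 5.23 and 5.08 in DMSO-treated cells. The replicates lay far apart in both genotypes and close together in both treated groups. Sirt1 KO exceeded WT by 0.63 (SE 0.64; SE 0.18 and adjusted p = 0.191 with the block), and most of it came from pair 2, where the difference was 1.07 against 0.19 in pair 1. Without Sirt1 KO replicate 2 it turned to -0.30. Resveratrol minus DMSO was -0.03 (95% interval -0.46 to 0.39 with the block), and turned to 0.01 without resveratrol replicate 2 and to 0.04 without DMSO replicate 1.

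**Figure D3:**
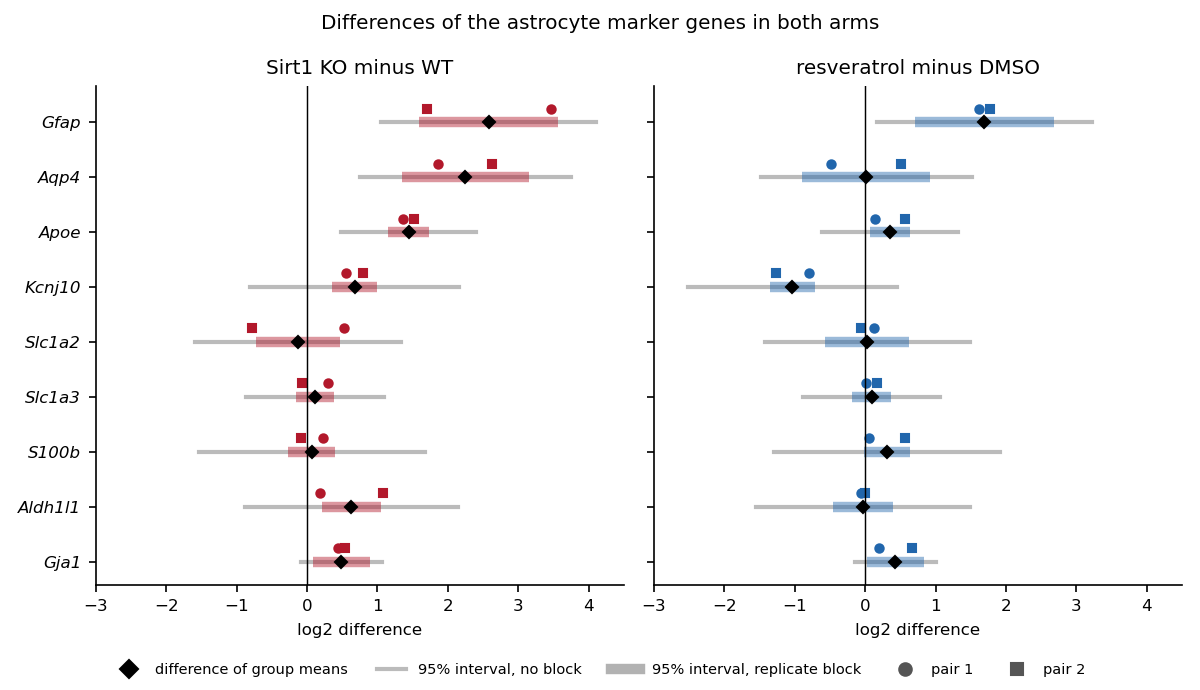
Log2 differences of the astrocyte marker genes, Sirt1 KO minus WT at the left and resveratrol minus DMSO at the right, with the difference of group means (diamonds), its 95% interval without a block (thin lines) and with replicate block (thick bars), and each pair (circles and squares). Apoe at the left and Kcnj10 at the right, with differences of 1.44 and -1.03, are the members that passed with the block.

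Over the members, the median Sirt1 KO minus WT difference was 0.63, against -0.03 over all genes tested. Both Sirt1 KO arrays were above both WT arrays for 5 of the 9 members (Gfap, Aqp4, Apoe, Kcnj10 and Gja1), a pattern that 7.51% of all genes tested showed, and below them for 0, against 7.43% of all genes. Aqp4 passed the filter on dim probes with its brighter probe through Sirt1 KO alone, the group where it is high, so its place in these counts was partly set by the filter. Both pairs were higher for 6 members, with Aldh1l1 added, against 23.2% of all genes, and lower for 0, against 32.9%. With the block 1 member passed, Apoe, and it was higher, against 0.293% of all genes called higher. The median resveratrol minus DMSO difference was 0.09, against 0.01 over all genes. Both resveratrol arrays were above both DMSO arrays for 4 members (Gfap, Apoe, Slc1a3 and Gja1), against 10.2% of all genes, and below them for 0, against 8.86%. Both pairs were higher for 5 members, against 35.7% of all genes, and lower for 2 (Kcnj10 and Aldh1l1), against 32.9%. With the block 1 member passed, Kcnj10, and it was lower, against 0.0676% of all genes called lower. Kcnj10 was also the member that passed for the difference between both arms, higher in the genotype arm, where 0.143% of all genes were called in that direction and 0.173% in the other. These shares describe the 9 genes, which were chosen with earlier results of these data known, and were not tested as a set.

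The 2 control groups stood apart for some members, and WT was set against DMSO for their levels alone. Strain and DMSO differ between them, as do sex in pair 1 and slide and scan day in pair 2, and these cannot be told apart. Gfap read lower in WT than in DMSO, with measured means of -6.69 in WT and -3.28 in DMSO. The limma adjusted p was 0.00229 with the replicate block, 0.0277 with slide as a block and 0.214 without a block. Neither WT array was well above background for this probe, so no fold is given. The second Gfap probe, A_52_P540991, which did not pass the filter, differed by -0.95 (SE 0.75). Apoe fell by 1.38 (adjusted p = 0.000458 with the block) and Aldh1l1 fell by 0.87 (adjusted p = 0.0211 with the block) in WT relative to DMSO. Within slide 1, WT 1 minus DMSO 1 was -1.81 for Apoe and -1.43 for Aldh1l1, and Gfap was not well above background on WT 1. With slide as a block the adjusted p was 0.0713 for Apoe and 0.0772 for Aldh1l1. These 3 were the members called with the block, where 5.47% of all genes were called lower and 6.16% higher. The main fit, without a block, called no member, and called 0.0376% of all genes lower and 0.0451% higher. Slide as a block called 0.571% of all genes lower and 0.496% higher. WT was below DMSO without overlap for these 3 members, against 12.7% of all genes, and above it for 2 (Slc1a2 and Gja1), against 13.5%. Both pairs were lower for 4 members, with Aqp4 added, against 27.6% of all genes, and higher for 3 (Slc1a2, S100b and Gja1), against 32.8%. Gfap passed the filter on dim probes through resveratrol and DMSO alone, the groups where it is high. Its place in these calls and counts was therefore partly set by the filter. Without a block, Gfap passed as lower in WT with quantile normalization (-3.51, limma adjusted p = 0.0478) and with the authors' deposited values (-3.65, adjusted p = 0.0422). Of all 13306 genes, those fits called 10 and 18 lower. Normexp on the median signals turned the difference of Gfap to 0.69 (adjusted p = 0.0153 with the block) and that of Aqp4 to 0.96 (adjusted p = 0.00747). That blocked fit called 4019 of all 13306 genes higher in WT. The other 6 members differed by -0.998 (Aqp4) to 0.71 (Slc1a2). Among the groups, WT thus had the lowest mean for Gfap, Aqp4, Apoe, Slc1a3 and Aldh1l1, while DMSO had the lowest for Slc1a2, S100b and Gja1 and resveratrol the lowest for Kcnj10. Sirt1 KO overlapped DMSO for Apoe and Aldh1l1 but lay between WT and DMSO for Gfap.

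Other genes of astrocytes were taken from 3 lists, also chosen with earlier results of these data known. Of 40 further astrocyte genes 38 were tested, and Gjb6 and Slc14a1 were not among the genes tested. In Sirt1 KO against WT their median difference was 0.30, and 12 of the 38 were higher without overlap (31.6%, against 7.51% of all genes). The thyroid hormone deiodinase Dio2 was the 1 lower without overlap (2.63%, against 7.43% of all genes). With the block 5 rose and 0 fell, against 0.293% of all genes called higher and 0.0676% called lower. Among them were Aldoc, Fgfr3, Ttyh1 and Itih3. Aldoc, the brain form of aldolase, read 5.72 and 6.14 in Sirt1 KO, against 4.83 and 5.13 in WT (difference 0.95, adjusted p = 0.0195 with the block). Fgfr3, a receptor for fibroblast growth factors, rose by 1.22 (adjusted p = 0.0441) but its groups overlapped, and replicate 2 was far lower in each. Of the remaining genes of this list that were singled out by name, glutamine synthetase Glul (0.05), Vim (0.05), Clu (0.02), and the regulators Nfia (-0.17) and Sox9 (-0.44) did not pass.

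In resveratrol against DMSO the same 38 genes had a median difference of 0.07, with 7 higher without overlap (18.4%, against 10.2% of all genes) and 2 lower (5.26%, against 8.86%), and 0 passed with the block or without it. The lipid and protein chaperone clusterin, Clu, read 1.47 and 1.49 in resveratrol-treated cells, against 1.06 and 0.65 in DMSO-treated cells (difference 0.62, adjusted p = 0.108 with the block), and the filament gene Vim differed by 0.43 (adjusted p = 0.138). Aldoc differed by -0.27, Fgfr3 by -0.73, Glul by 0.08, Sox9 by -0.21 and Nfia by -0.02. Of 16 genes of reactive astrocytes, those that appear after injury, 14 were tested. Their median difference was 0.38 in resveratrol against DMSO, with 8 of 14 higher without overlap (57.1%, against 10.2% of all genes) and 1 lower (7.14%, against 8.86%). In Sirt1 KO against WT their median was -0.15, with 2 higher and 2 lower without overlap (14.3% each, against 7.51% and 7.43% of all genes). None passed with the block in either arm. Of these 14 genes, all were well above background on both resveratrol arrays, 13 on both DMSO arrays and 12 on both arrays of each genotype. The same 12 were so on all 8 arrays, so the filter on dim probes let a gene in through resveratrol alone. The count of 8 higher with resveratrol may thus be partly set by the filter. Cxcl10, a chemokine, read -2.19 and -2.19 in resveratrol-treated cells, against -3.90 and -3.55 in DMSO-treated cells (difference 1.53, adjusted p = 0.0733 with the block).

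Of 30 regulators of astrocyte fate 29 were tested. Hes5, a Notch target, rose in Sirt1 KO and fell with resveratrol with the block, and read 4.52 and 4.37 in Sirt1 KO, against 2.88 and 2.69 in WT, and 3.86 and 2.97 with resveratrol, against 5.27 and 5.17 with DMSO. Id1, a target of bone morphogenetic proteins, rose 2.01-fold in Sirt1 KO (adjusted p = 0.0499 with the block) and read 0.95 and 1.33 there, against -0.25 and 0.52 in WT. It also read -0.24 and 1.42 with resveratrol, against -0.55 and 0.79 with DMSO. No other regulator passed within an arm, where 0.293% of all genes were called higher in Sirt1 KO and 0.0676% lower with resveratrol. The list's median was 0.06 in Sirt1 KO against WT and -0.11 in resveratrol against DMSO.

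Markers of other cells moved with some of these results, and their part in them was not tested. Of 14 mature oligodendrocyte genes 11 were tested, and their median Sirt1 KO minus WT difference was 0.52, with 5 higher without overlap (45.5%, against 7.51% of all genes) and 0 lower (against 7.43%). Their signals, summed in units of the 75th percentile, came to 11.88 and 10.73 in Sirt1 KO, against 7.32 and 8.48 in WT, and to 8.77 and 7.32 with resveratrol, against 11.7 and 9.87 with DMSO. Mog, Ermn and Opalin were not among the genes tested. Of 10 oligodendrocyte precursor genes all were tested, summing to 275 and 267 in Sirt1 KO, against 272 and 288 in WT, and to 269 and 230 with resveratrol, against 306 and 297 with DMSO. Their median Sirt1 KO minus WT difference was -0.19. In both pairs 3 were higher and 5 lower, against 23.2% and 32.9% of all genes. With the block 1 of them, Gpr17, rose by 1.66 (adjusted p = 0.0499), against 0.293% of all genes called higher. Their median resveratrol minus DMSO difference was -0.34, with 0 higher and 9 lower in both pairs, against 35.7% and 32.9% of all genes. Without overlap 0 were higher and 4 lower (40.0%), against 10.2% and 8.86%, and 0 passed with the block. Neural stem cell genes (13 of 15 tested) summed to 303 and 475 in Sirt1 KO, against 314 and 552 in WT, and to 321 and 456 with resveratrol, against 362 and 505 with DMSO. Of 14 microglial genes 4 were tested, summing to 2.09 and 4.33 in Sirt1 KO, against 1.80 and 4.47 in WT, and to 2.75 and 5.81 with resveratrol, against 2.66 and 3.58 with DMSO, and Aif1, Cx3cr1 and P2ry12 were not among the genes tested. Endothelial genes (5 of 10 tested) summed to 1.28 and 0.86 in Sirt1 KO, against 0.52 and 0.62 in WT, and to 0.90 and 0.46 with resveratrol, against 0.90 and 0.43 with DMSO. Their median Sirt1 KO minus WT difference was 0.30. The receptor gene Flt1 rose in Sirt1 KO by 2.06 (adjusted p = 0.0188 with the block), the other 4 genes of that list did not pass, and Pecam1, Cldn5 and Cdh5 were not among the genes tested. Neuronal genes (11 of 15 tested) had median differences of -0.04 in Sirt1 KO against WT and 0.02 in resveratrol against DMSO, and none passed in either arm. Of 12 pericyte, smooth muscle and fibroblast genes 4 were tested, with a median Sirt1 KO minus WT difference of -0.12. Of these, Tagln, an actin-binding protein of smooth muscle, rose in Sirt1 KO by 0.99 (adjusted p = 0.0233 with the block), while Myh11 differed by -0.56, Col1a2 by -0.23 and Acta2 by 0.0003. The 9 members themselves summed to 148 and 239 in Sirt1 KO, against 95.6 and 155 in WT, and to 184 and 203 with resveratrol, against 186 and 164 with DMSO, and these sums overlapped in the genotype arm.

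**Figure D4:**
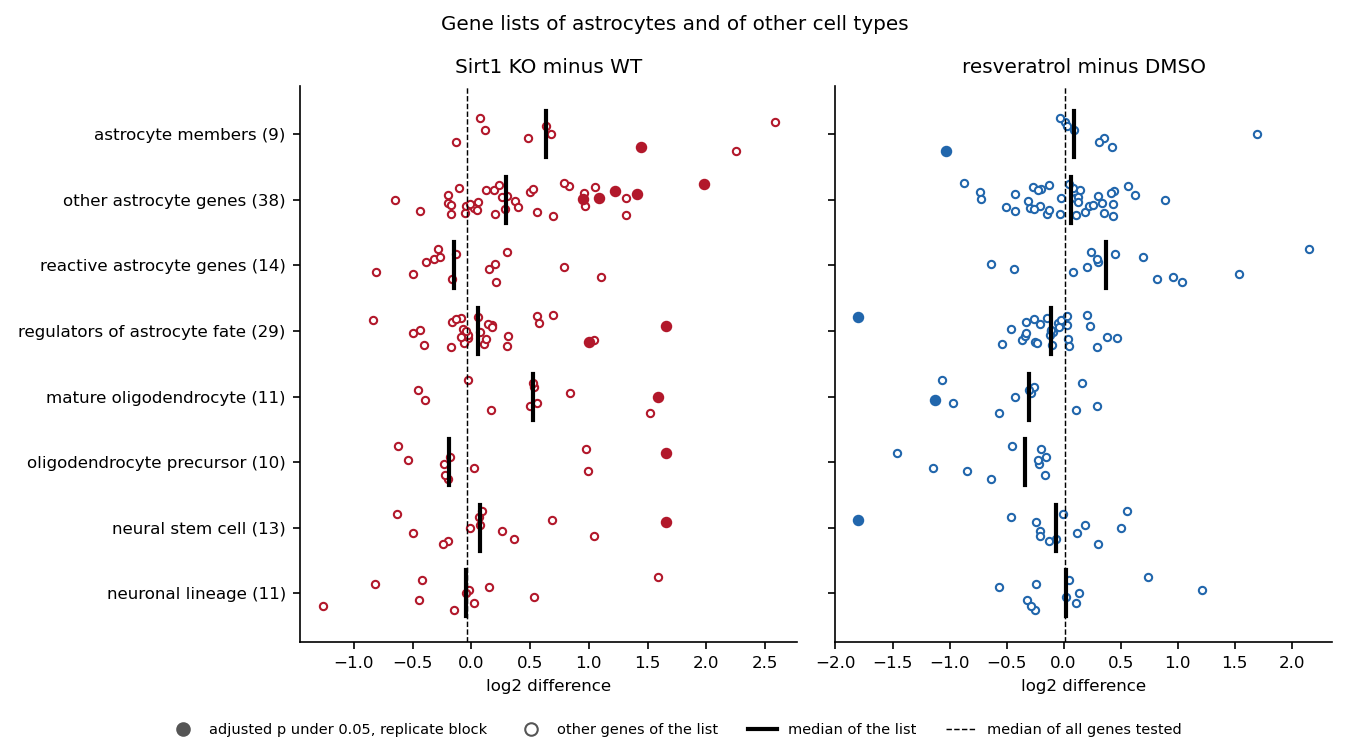
Log2 differences of the genes of 8 lists, with the number tested in brackets, for Sirt1 KO minus WT at the left and resveratrol minus DMSO at the right. Filled points passed with the replicate block, thick bars are list medians and the dashed line is the median of all genes tested, and Hes5 appears in the lists of regulators and of neural stem cells. The astrocyte members have medians of 0.63 at the left and 0.09 at the right.

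For each of the 7 members well above background throughout, the genes with the most similar profile over the 8 arrays were sought among 11681 genes by Pearson correlation, as a description. The arrays share 4 groups and the split between replicate numbers, so that high values are common. Fbxo36 (r = 0.99), Angptl4 (0.98) and Cpe (0.98) were most like Apoe, and Tnrc18, Nr2e1 and Purg (0.97 each) most like Kcnj10. Smarca2 (0.99), Stag3 (0.98) and Zfp729a (0.98) were most like Slc1a2, and Enox2 (0.98), Tbx2 (0.98) and Erlec1 (0.97) most like Slc1a3. S100b was matched by Rab6a (0.995), Plekhh3 (0.995) and Zdhhc24 (0.99), Aldh1l1 by Trip4 (0.95), Rspo1 (0.95) and S100a6 (0.94), and Gja1 by Pltp (0.97), Pi4k2b (0.96) and Sgpl1 (0.93). Cpe is also among the further astrocyte genes, and its Sirt1 KO minus WT difference was 0.29 (adjusted p = 0.263 with the block).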

How the data were processed

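RNA from 8 neurosphere samples was labelled with Cy3 and hybridised to one-colour Agilent arrays. The deposited intensity values are processed signals that the scanner software, Agilent Feature Extraction, had corrected for background within each array, per the file headers. The deposited value table holds the authors' log2 values of the same arrays, with column medians of 6.28, and of 6.01 for the arrays of slide 3. Its centring and scaling are not given in the sources used here.

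Control spots and flagged spots (45 to 103 per array) were left out, spots of a probe were averaged, and log2 signals were centred on the 75th percentile of each array. Of 41174 probes, 26282 passed the filter, which asked that some group have both its arrays well above background. The brightest passing probe stood for a gene, and 13306 genes were tested with limma 3.58.1 in R 4.3.3 as 4 group means with Benjamini-Hochberg adjustment over all genes. Accessions were named through RefSeq, and 14226 probes had no symbol. The fit was also run on simulated data with independent noise on each array and no effect of pairs. That run therefore does not show how the fit does on paired arrays such as these.

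Deviations from group means correlated between same-numbered arrays by 0.74 (Sirt1 KO and WT) and 0.83 (resveratrol and DMSO). In the first pair of groups the numbers match sex and also scan day, and both replicate 2 arrays lay on slide 3. In the second pair of groups they match slide. The fit with the replicate block is therefore given beside the main one. The mean signal was not used here, so normexp (offset 50) was run on median signals. Members, lists and promoter motifs were chosen with earlier results of these data known. Further genes named were those of the astrocyte, reactive and regulator lists that passed, a subset fixed by name, and for likeness the 3 highest correlations per member. Dio2, Cxcl10, Gpr17, Flt1, Tagln, Myh11, Col1a2 and Acta2 were chosen after their values were seen. Some genes of the lists are not reported here by name.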

Additional observations from a re-analysis of the deposited data

Results flagged for a closer look

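The Sirt1 KO minus WT difference of Kcnj10 was larger than its resveratrol minus DMSO difference by 1.71 (SE 0.88; limma, adjusted p = 1.0, and adjusted p = 0.0195 with the replicate block). Both Sirt1 KO pairs were higher, by 0.55 and 0.80, and both resveratrol pairs were lower, by -0.80 and -1.26.

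The same difference between the arms was 0.66 for Aldh1l1 (SE 0.90; limma, adjusted p = 1.0, and adjusted p = 0.371 with the block). It stood out because both Sirt1 KO pairs were higher, by 0.19 and 1.07, and both resveratrol pairs were marginally lower, by -0.06 and -0.004, and it did not pass the test.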

How the results depend on the processing

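With the replicate block 48 genes passed for Sirt1 KO against WT, 71 for resveratrol against DMSO, 42 for the difference between the arms and 1547 for WT against DMSO, against 0, 0, 0 and 11 without it. In the same order, the block gave 18, 34, 18 and 1445 genes with quantile normalization, 25, 33, 23 and 1713 with the deposited value table, 4299, 104, 2807 and 6175 with normexp, 26, 57, 36 and 1517 with the percentile taken over spots, and 21, 45, 31 and 1459 with marked spots kept. Slide as a block gave 0 genes for Sirt1 KO against WT, resveratrol against DMSO and the difference between the arms (limma, 1234, 606 and 948 at an unadjusted p under 0.05), so the calls of Apoe and Kcnj10 within the arms were lost with it. Without the replicate block, WT against DMSO gave 142 genes with slide as a block, 22 with quantile normalization, 29 with the deposited value table and 4 with only probes above background on all arrays. Leaving out an array gave 0 to 5 genes for Sirt1 KO against WT, 0 to 0 for resveratrol against DMSO, 0 to 3 for the difference between the arms and 0 to 4 for WT against DMSO. The blocked fits on other normalizations, the percentile over spots and the marked spots were chosen after seeing the data.

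Normexp on median signals, with or without the replicate block, turned Sirt1 KO minus WT of Gfap to -0.98, Aqp4 to -0.57 and Slc1a2 to 0.081. It turned the difference between the arms of Gfap to -1.96, Aqp4 to -0.62, Slc1a2 to 0.049, S100b to 0.036 and Gja1 to -0.26, and WT minus DMSO of Gfap to 0.69, Aqp4 to 0.96 and Kcnj10 to -0.24. With the block, normexp passed in the reversed direction for Gfap in all 3 of these comparisons and for Aqp4 in WT minus DMSO, and it left 0.055 of the Gja1 difference between Sirt1 KO and WT. Of 13306 genes that fit called 1053 higher and 3246 lower for Sirt1 KO minus WT. It called 491 and 2316 for the difference between the arms, and 4019 and 2156 for WT minus DMSO. Apoe, Kcnj10, Aldh1l1 and Slc1a3 passed there as higher in Sirt1 KO (limma, adjusted p = 0.00613, 0.0139, 0.0179 and 0.0296). Slide as a block turned Sirt1 KO minus WT of Slc1a2 to 0.24 and S100b to -0.36, the difference between the arms of Slc1a2 to 0.21 and Slc1a3 to -0.047, and WT minus DMSO of S100b to -0.063. The deposited value table, with or without the block, turned WT minus DMSO of Kcnj10 to -0.027. Leaving out an array turned the direction of the difference between the arms for Aldh1l1 (-0.27 to 1.60), Gfap (-0.075 to 1.85), Gja1 (-0.066 to 0.185), S100b (-0.93 to 0.46), Slc1a2 (-0.83 to 0.51), Slc1a3 (-0.44 to 0.48). Leaving out an array turned the direction of Sirt1 KO minus WT for Aldh1l1 (-0.30 to 1.56), S100b (-0.62 to 0.77), Slc1a2 (-0.74 to 0.47), Slc1a3 (-0.35 to 0.57). Leaving out an array turned the direction of resveratrol minus DMSO for Aldh1l1 (-0.107 to 0.041), Aqp4 (-0.72 to 0.75), S100b (-0.32 to 0.94), Slc1a2 (-0.64 to 0.70). Leaving out an array turned the direction of WT minus DMSO for Kcnj10 (-0.45 to 0.65), S100b (-0.36 to 1.04), Slc1a3 (-0.864 to 0.057). The cause was not tested in any of these. Signals near background limit Gfap and Aqp4 most, and Gfap and Aqp4 had no value with only probes above background on all arrays.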
